A study of Bos taurus with 12 samples.

Results

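The insulin-like growth factor (IGF) system of the bovine follicle wall was followed through 9 genes: the ligands IGF1 and IGF2, the receptors IGF1R and INSR, and the binding proteins IGFBP2, IGFBP3, IGFBP4, IGFBP5 and IGFBP6. Every probe set that the platform's gene table pairs with these symbols was taken, which gave 21 of the 24016 probe sets that are no controls, and 9 of the 9155 genes with 1 symbol. Probe sets of a gene were kept apart, because those of IGF2 in particular do not read alike. Granulosa cells, the epithelium inside the follicle, and theca cells, the vascular androgen-making layer around it, came from small (up to 5 mm), medium (5 to 10 mm) and large (over 10 mm) antral follicles. Each layer and size had 2 Affymetrix arrays, 12 in all. All ovaries were untreated and came from young cycling heifers that were not pregnant, and the lack of a corpus luteum marked the follicular stage. Cells of 20 to 40 follicles were pooled for each RNA sample, where the design text speaks of as many ovaries. Replicates are called biological, but shared animals between pools are not mentioned, so p-values measure the spread between pools.

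IGF1 and IGF2 are secreted growth factors that signal through the tyrosine kinase IGF1R, and IGF2 also binds an isoform of the insulin receptor INSR. Binding proteins hold most extracellular IGF and can withhold it from the receptors or bring it to cells, until proteases such as PAPPA cut them. In the follicle the system is known to act together with FSH and LH on the growth and steroid output of granulosa and theca cells.

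Values are array signals as scaled by the authors. Changes are differences of log2(signal + 16) ± standard error from a limma model over all 12 arrays, and a change counts as called where its p, adjusted by Benjamini and Hochberg over the 17236 probe sets tested, was under 0.05. The offset understates folds of dim probe sets. Signals are set against each other only within a probe set. Of the 21 probe sets, 17 passed the filter on low signal (a group mean above 22.5), and these covered all 9 genes. The 4 left out were IGF1 Bt.12750.1.S1_at (0.9 to 19.7 over the 12 arrays), IGF1 Bt.12750.2.A1_at (3.5 to 37.4), IGF2 Bt.29867.1.S1_at (0.6 to 9.0) and INSR Bt.28461.1.A1_at (1.3 to 27.0). A further 5 passed only through granulosa groups and so could hardly be called in the other direction: both tested IGF1 probe sets, IGF1R Bt.12759.1.A1_at, INSR Bt.28461.1.A1_a_at and INSR Bt.28461.1.S1_at. IGF1R Bt.12759.1.S1_at and IGF2 Bt.29867.1.A1_at passed in 3 granulosa groups and 1 theca group. The other 10 passed in all 6 groups.

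A pair of arrays stood apart. Theca small replicate 1 had a 3' over 5' signal ratio of 8.36 for the GAPDH control (0.984 to 1.30 elsewhere) and an actin ratio of 11.2. Granulosa large replicate 1 had an actin ratio of 21.0 and the highest median signal, 48.8 against 33.7 to 39.2. On the remaining arrays the actin ratio was 2.39 to 7.57, highest on theca medium replicate 2 (7.57) and theca small replicate 2 (7.25). The description field names theca for every sample, so the layer was read from the title. Over all sizes 12 of 15 granulosa markers were higher in the arrays titled granulosa, and 6 of 9 theca markers were lower, as were 10 of 13 fibroblast and stroma, 9 of 12 endothelial and 7 of 10 smooth muscle and pericyte markers (1 stroma marker was higher). Summed granulosa markers read 10085 to 13142 on the small, 13037 to 23627 on the medium and 22339.8 to 33532 on the large theca arrays, against 29245 to 47041 in granulosa. In granulosa, large minus small, all 13 macrophage and myeloid and all 7 lymphocyte markers tested were higher. No marker on these lists was at 0 on any array.

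Over all sizes the layers differed in 14 of the 17 probe sets, where 24.8% of all tested probe sets were called. IGF1, IGF1R, INSR, IGFBP2 and IGFBP5 were higher in granulosa (8 probe sets, background 13.6%). The only called probe set of IGF1 and 1 each of IGF1R and INSR passed the filter through granulosa groups alone, the side where they read high, so their calls are no support for that count. Of the 12 probe sets that passed through a theca group as well, 11 were called, 5 higher and 6 lower, and these covered 8 genes. IGF2, IGFBP3, IGFBP4 and IGFBP6 were lower in granulosa (6 probe sets, background 11.2%). The signals of the 6 granulosa and 6 theca arrays did not overlap for 7 of the 17, against 10.3% of all tested probe sets. These were the 6 probe sets that were lower in granulosa and IGFBP5. The median difference was 0.54 over the 17 probe sets and 0.10 over all tested, a description that the filter also shapes. These are tissue layers, so fewer cells of a type and less RNA per cell cannot be told apart. Of the 14 calls, 11 held under each of 20 other settings, and the exceptions were IGF1R Bt.12759.1.A1_at, INSR Bt.28461.1.A1_a_at and IGFBP2.

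**Figure D1:**
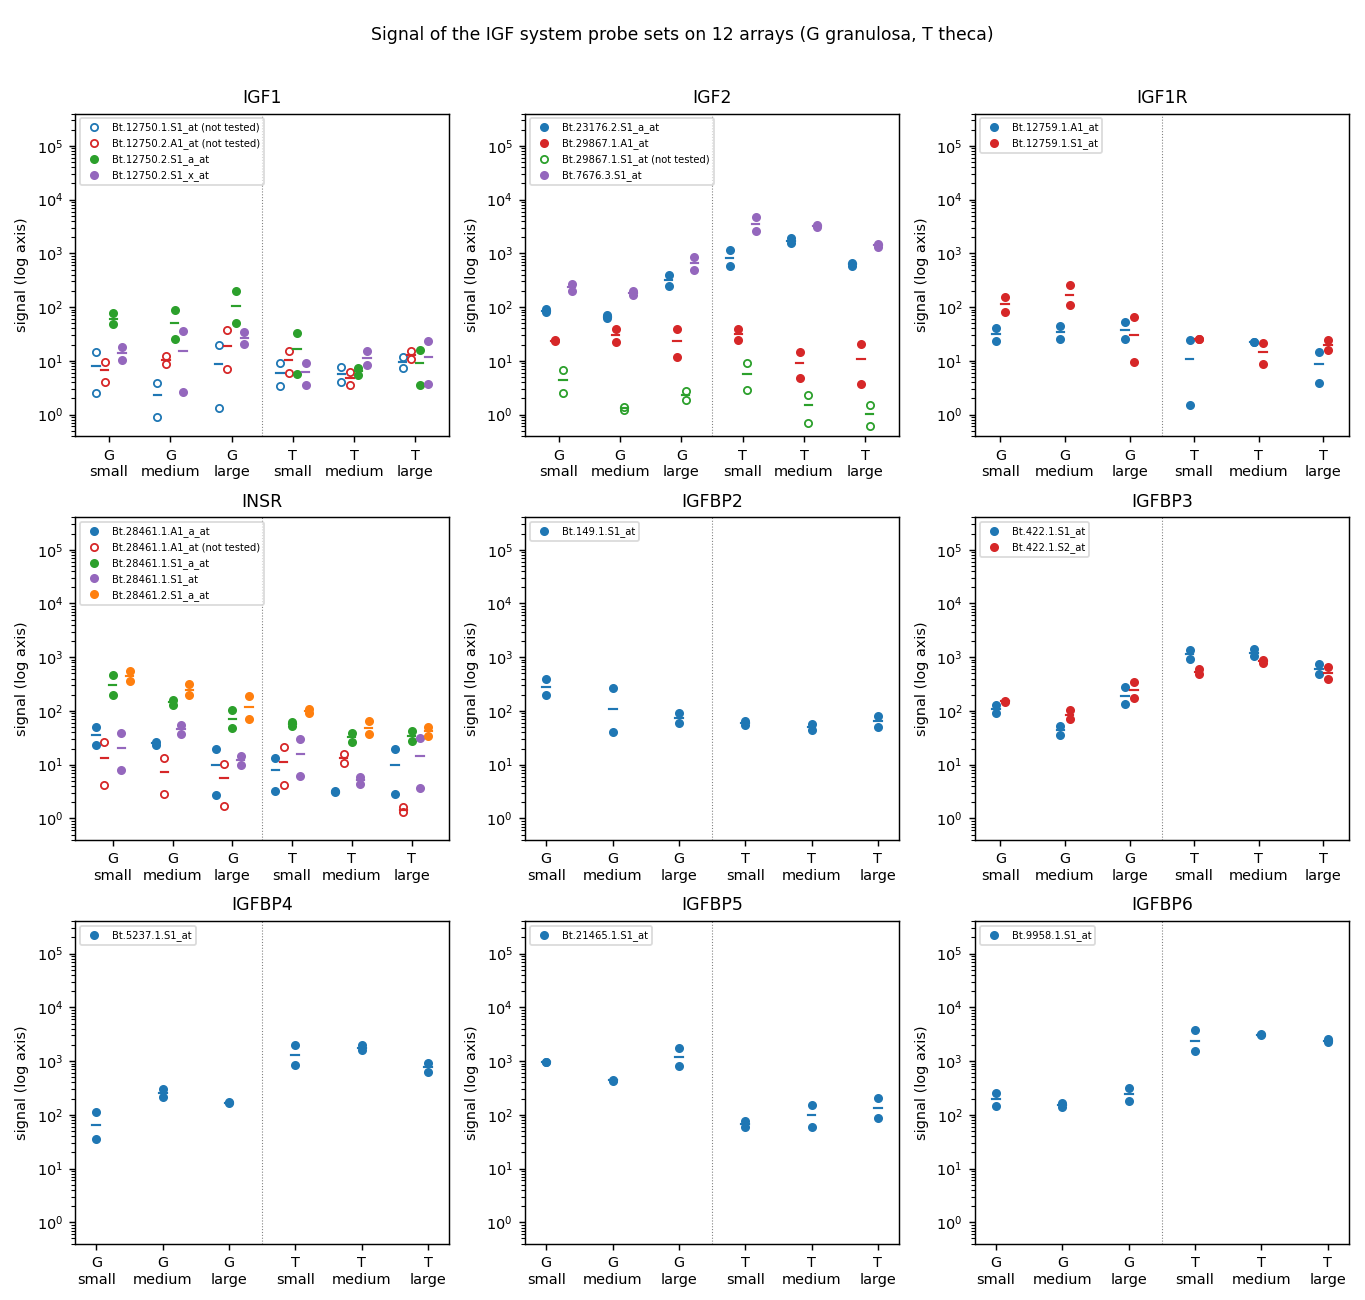
Signal (log axis) of all 21 probe sets of the 9 genes on 12 arrays, with 1 panel per gene. Points are arrays, G is granulosa, T is theca, colours are probe sets, open points are probe sets that were not tested, and bars are the group mean taken on the log2(signal + 16) scale. Theca points lie above all granulosa points for IGF2 Bt.7676.3.S1_at and Bt.23176.2.S1_a_at, IGFBP3, IGFBP4 and IGFBP6, and below them for IGFBP5.

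Among the ligands, IGF2, the fetal-type growth factor, was the one with more signal in theca. Probe set Bt.7676.3.S1_at read 197 and 273 in small, 169 and 201 in medium and 498 and 848 in large granulosa. In theca it read 4707 and 2567 in small, 3040.1 and 3394 in medium and 1339 and 1489.9 in large follicles. Every theca array was above every granulosa array, and the distance was smallest in large follicles, where granulosa read highest and theca lowest. Over all sizes granulosa minus theca was -2.98 ± 0.21 (7.87-fold, adjusted p = 4.32e-07). By size it was -3.82 in small (14.1-fold, adjusted p = 4.28e-05), -4.01 in medium (16.1-fold, adjusted p = 3.01e-05) and -1.10 in large follicles (2.14-fold, adjusted p = 0.112).

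The second bright IGF2 probe set, Bt.23176.2.S1_a_at, read 80.2 and 90.9 in small, 62.9 and 70.7 in medium and 247 and 396 in large granulosa. In theca it read 590.3 and 1150.0 in small, 1578 and 1903 in medium and 594 and 652 in large follicles. Here too all theca arrays lay above all granulosa arrays. Granulosa minus theca was -2.80 ± 0.21 over all sizes (6.98-fold, adjusted p = 5.86e-07). It was -3.05 in small (adjusted p = 0.000212), -4.40 in medium (21.1-fold, adjusted p = 1.21e-05) and -0.96 in large follicles (adjusted p = 0.153). In the order of group means, medium theca stood alone at the top for this probe set (1740 ± 230.0, SD, n = 2), while small (870.1 ± 396) and large theca (623 ± 41.4) overlapped. For Bt.7676.3.S1_at small (3637 ± 1513) and medium theca (3217 ± 250.1) overlapped and large theca (1414 ± 107) lay below both. Over the 12 arrays the signals of these probe sets correlated with r = 0.948, with 0.990 within the 6 granulosa and 0.395 within the 6 theca arrays, as a description. They parted most on theca small replicate 1, where Bt.7676.3.S1_at had its highest and Bt.23176.2.S1_a_at its lowest theca reading, and that array also had the high GAPDH ratio. Whether RNA length played a part was not tested. Without both arrays that stood apart the small-follicle difference was -3.38 on Bt.7676.3.S1_at (adjusted p = 0.000378) and -3.52 on Bt.23176.2.S1_a_at (adjusted p = 0.000262).

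The third IGF2 probe set, Bt.29867.1.A1_at, read dimly everywhere, between 11.8 and 38.7 in granulosa and between 3.7 and 39.5 in theca. Its layers overlapped, with a difference of 0.38 ± 0.24 (adjusted p = 0.260), and it correlated with the bright probe sets at -0.41 and -0.24 over the 12 arrays.

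IGF1, the ligand otherwise known as the mediator of growth hormone, was higher in granulosa on its brightest probe set, Bt.12750.2.S1_a_at. The signals were 47.8 and 77.0 in small, 89.5 and 25.5 in medium and 199 and 51.2 in large granulosa. Theca arrays gave 32.4 and 5.7 in small, 7.5 and 5.5 in medium and 16.1 and 3.5 in large follicles, below the filter signal on all but 1 array. Within each size the layers did not overlap, but theca small replicate 1 exceeded granulosa medium replicate 2. The difference over all sizes was 1.69 ± 0.33 (3.23-fold, adjusted p = 0.00231). By size it was 1.25 in small (adjusted p = 0.186), 1.56 in medium (adjusted p = 0.142) and 2.26 ± 0.57 in large follicles (4.80-fold, adjusted p = 0.0395). All neighbours in the order of the 6 group means overlapped. The brightest IGF1 array was granulosa large replicate 1, which also had the highest sum of macrophage and myeloid markers (16689, against 6528 on its replicate and 574 to 1590 on small and medium granulosa). Their part in the result was not tested. The large-follicle call ended when that array was left out (1.43, adjusted p = 0.276), and without theca large replicate 1 (adjusted p = 0.107) or replicate 2 (adjusted p = 0.266). It also ended at 0.0547 to 0.0578 without either small granulosa or either medium theca array, and at 0.0526 to 0.0985 with an offset of 1 or 64, no filter, quantile normalization or the compared groups alone. Without both arrays that stood apart it was 0.171. The other tested IGF1 probe set, Bt.12750.2.S1_x_at, ran from 2.6 to 36.1 in granulosa and 3.6 to 23.1 in theca and was not called (0.41 ± 0.27, adjusted p = 0.281).

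Both receptors were higher in granulosa. IGF1R, the main signalling receptor of both ligands, read 80.3 and 157 in small, 108 and 262 in medium and 9.7 and 66.3 in large granulosa on Bt.12759.1.S1_at. Theca gave 26.0 and 25.2, then 21.5 and 8.7, then 24.2 and 15.9. Small and medium granulosa stood above all theca arrays, whereas large granulosa replicate 1 lay among the theca values. Over all sizes the difference was 1.53 ± 0.30 (2.90-fold, adjusted p = 0.00249). It was 1.63 in small (adjusted p = 0.0648), 2.61 ± 0.52 in medium (6.10-fold, adjusted p = 0.00807) and 0.36 in large follicles (adjusted p = 0.738). The medium call ended without replicate 2 of medium granulosa (2.03, adjusted p = 0.115) or of medium theca (2.31, adjusted p = 0.114). Probe set Bt.12759.1.A1_at spanned 23.6 to 52.0 in granulosa and 1.5 to 24.8 in theca, and differed by 0.77 ± 0.25 (adjusted p = 0.0360). That call ended without any of 7 arrays: granulosa small replicate 2, granulosa medium replicate 2, granulosa large replicate 1, theca small replicate 2, theca large replicate 1 or either medium theca array (adjusted p = 0.0721 to 0.106). It ended as well with an offset of 1 (0.0704) or 64 (0.0764) and after quantile normalization (0.0577). The IGF1R probe sets correlated at 0.399 over the 12 arrays.

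INSR, the insulin receptor, showed a step down from small to large follicles within granulosa on its brightest probe sets. On Bt.28461.2.S1_a_at granulosa read 558 and 361 in small, 198 and 314 in medium and 186 and 71.1 in large follicles. Theca read 91.1 and 107 in small, 63.7 and 37.0 in medium and 51.2 and 34.8 in large follicles. Group means ran from small (459 ± 139) through medium (256 ± 82.2) to large granulosa (129 ± 81.4) without overlap of neighbours, and large granulosa overlapped small theca (99.2 ± 11.5). Probe set Bt.28461.1.S1_a_at gave 462 and 202, 130.4 and 163, and 102 and 48.5 in granulosa. Its theca signals lay between 26.9 and 63.0, and these probe sets correlated at 0.981 over the 12 arrays, 0.968 within granulosa and 0.966 within theca.

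The INSR layer difference was 1.74 ± 0.25 on Bt.28461.2.S1_a_at (3.35-fold, adjusted p = 0.000202) and 1.56 ± 0.24 on Bt.28461.1.S1_a_at (2.94-fold, adjusted p = 0.000376). On Bt.28461.2.S1_a_at it was 2.02 in small (adjusted p = 0.0106), 2.03 in medium (adjusted p = 0.0108) and 1.18 in large follicles (adjusted p = 0.131). On Bt.28461.1.S1_a_at it was 2.14 (adjusted p = 0.00595), 1.74 (adjusted p = 0.0214) and 0.79 (adjusted p = 0.292). The small-follicle calls ended without granulosa small replicate 1 (adjusted p = 0.0837 and 0.0646), and that on Bt.28461.2.S1_a_at also without theca small replicate 1 (adjusted p = 0.0664). The medium calls ended without replicate 2 of medium granulosa (adjusted p = 0.121 and 0.152) or of medium theca (0.159 and 0.217). On Bt.28461.1.S1_a_at the medium call also ended without replicate 1 of medium granulosa (0.0623) or of medium theca (0.0782), or with an offset of 64 (0.0614).

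A dimmer INSR probe set, Bt.28461.1.A1_a_at, ran from 2.7 to 51.2 in granulosa and 2.9 to 19.5 in theca, with a difference of 0.73 ± 0.24 (adjusted p = 0.0412). Its call ended without any of 8 arrays: granulosa small replicate 1, granulosa large replicate 1, theca small replicate 2, theca large replicate 2 or any medium array (adjusted p = 0.0712 to 0.136), and with an offset of 1 (0.0658) or 64 (0.0968), no filter (0.0556) or both arrays that stood apart left out (0.0618). The fourth tested INSR probe set, Bt.28461.1.S1_at, ran from 7.9 to 54.8 in granulosa and 3.7 to 30.9 in theca and was not called (0.54, adjusted p = 0.175). Within granulosa its group mean was highest in medium follicles (37.3 and 54.8, against 39.1 and 7.9 in small). Bt.28461.1.A1_a_at gave -0.98 for granulosa large minus small (limma, adjusted p = 0.297).

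The binding proteins divided between the layers, IGFBP2 and IGFBP5 with granulosa and IGFBP3, IGFBP4 and IGFBP6 with theca. IGFBP5, a secreted protein that also sticks to extracellular matrix, read 963 and 964 in small, 431 and 452 in medium and 821 and 1736 in large granulosa. Theca gave 58.4 and 77.4 in small, 154 and 60.2 in medium and 88.0 and 202 in large follicles. The lowest granulosa array was thus above the highest theca array. The difference was 2.86 ± 0.27 over all sizes (7.24-fold, adjusted p = 4.86e-06), 3.55 in small (11.7-fold, adjusted p = 0.000377), 2.01 in medium (adjusted p = 0.0188) and 3.01 in large follicles (8.04-fold, adjusted p = 0.00255). Without theca medium replicate 2 the medium value was 1.43 (adjusted p = 0.302), and without granulosa medium replicate 1 or 2 the call ended too (adjusted p = 0.0758 and 0.116), as it did with an offset of 1 (0.0642). Medium granulosa (441 ± 14.7) lay below small (963 ± 0.49) and large granulosa (1278 ± 647), which overlapped. In theca, medium overlapped both other sizes, while large (145 ± 80.9) lay above small (67.9 ± 13.4) without overlap.

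IGFBP2, a binding protein that prefers IGF2, read 391 and 194 in small, 40.3 and 262 in medium and 91.9 and 59.6 in large granulosa. Theca stayed between 45.0 and 81.0 on its 6 arrays. The 2 small granulosa arrays were above all theca arrays, the 2 medium granulosa arrays lay on opposite sides of them, and large granulosa overlapped theca. The difference was 1.02 ± 0.33 over all sizes (2.02-fold, adjusted p = 0.0378) and 1.96 ± 0.57 in small follicles (3.88-fold, adjusted p = 0.0477). It was 0.91 in medium (adjusted p = 0.455) and 0.18 in large follicles (adjusted p = 0.894). The call over all sizes ended without any of 8 arrays: granulosa small replicate 1, granulosa medium replicate 2, granulosa large replicate 1, theca small replicate 1 or any medium or large theca array (adjusted p = 0.05003 to 0.102). The small-follicle call ended without any array other than those of medium granulosa (adjusted p = 0.0567 to 0.223). Either other offset, no filter and quantile normalization ended both calls (0.0550 to 0.113), and the replicate block ended the small-follicle call (0.0565). Without both arrays that stood apart they ended at 0.120 and 0.159. Leaving out granulosa medium replicate 1 gave a medium-follicle difference of 2.07 (adjusted p = 0.0253).

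IGFBP6, which binds IGF2 in preference to IGF1, was lower in granulosa in every size. Granulosa read 144 and 259 in small, 139 and 169 in medium and 183 and 318 in large follicles. Theca read 3726 and 1541, 3162 and 3045, and 2588 and 2249.8. The layers were far apart on every array, and within each layer the 3 sizes overlapped in the order of group means. The difference was -3.65 ± 0.25 (12.6-fold, adjusted p = 2.76e-07) over all sizes. It was -3.53 in small (11.5-fold, adjusted p = 0.000245), -4.20 in medium (18.4-fold, adjusted p = 5.38e-05) and -3.24 in large follicles (9.42-fold, adjusted p = 0.000819).

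IGFBP4, a binding protein that PAPPA cleaves, read 35.3 and 113 in small, 212 and 306 in medium and 171 and 163 in large granulosa. Theca read 1965 and 856 in small, 1625 and 1965 in medium and 923 and 633 in large follicles. The lowest theca array, in large follicles, was above the highest granulosa array, in medium follicles. Granulosa minus theca was -2.95 ± 0.27 over all sizes (7.71-fold, adjusted p = 3.85e-06). It was -4.01 in small (16.1-fold, adjusted p = 0.00017), -2.73 in medium (adjusted p = 0.00256) and -2.09 in large follicles (4.27-fold, adjusted p = 0.0224). Leaving out any of the 4 large-follicle arrays ended the large call (adjusted p = 0.0664 to 0.181): granulosa replicate 1 or 2, or theca replicate 1 or 2. An offset of 1 ended it too (0.0859).

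IGFBP3, the main carrier of IGF in blood, was read by 2 probe sets. On Bt.422.1.S1_at granulosa gave 127 and 93.0 in small, 53.4 and 35.9 in medium and 278 and 133 in large follicles. Theca gave 1350.0 and 945 in small, 1399 and 1069.7 in medium and 762 and 496 in large follicles. On Bt.422.1.S2_at granulosa ran from 69.4 to 347 and theca from 388 to 878. Neither probe set had overlapping layers, and for both the order within granulosa was large, small, medium with no overlap of neighbours. Over all sizes the differences were -3.05 ± 0.23 (8.30-fold, adjusted p = 5.48e-07) and -1.93 ± 0.22 (3.80-fold, adjusted p = 3.34e-05). By size Bt.422.1.S1_at gave -3.20 in small (adjusted p = 0.00026), -4.37 in medium (20.7-fold, adjusted p = 2.31e-05) and -1.59 in large follicles (3.02-fold, adjusted p = 0.0370). Bt.422.1.S2_at gave -1.73 (adjusted p = 0.0134), -3.06 (adjusted p = 0.000223) and -0.99 (adjusted p = 0.159). The large call ended without granulosa large replicate 2 (-1.10, adjusted p = 0.159), either large theca array (0.259 and 0.0906) or either medium theca array (0.0556), and with an offset of 1 (0.0955), no filter (0.0513) or the compared groups alone (0.0927). The small call on Bt.422.1.S2_at ended without granulosa small replicate 1 (0.0629) or 2 (0.0923).

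By size, 10 of the 17 probe sets were called between layers in small follicles, 4 higher and 6 lower in granulosa, against 9.14% of all tested (4.06% higher, 5.08% lower). In medium follicles 10 were called, again 4 higher and 6 lower, against 6% (1.79% and 4.21%). In large follicles 5 were called, IGF1 and IGFBP5 higher and IGFBP3 Bt.422.1.S1_at, IGFBP4 and IGFBP6 lower, against 4.41% (2.02% and 2.39%). The IGF1 call there is again of a probe set that passed the filter through granulosa alone. The 2 arrays of each layer did not overlap for 15, 15 and 11 of the 17 probe sets in small, medium and large follicles, against 49.8%, 52.9% and 55.2% of all tested. The count in small follicles was 6 without granulosa small replicate 1. In medium follicles it was 6 without replicate 2 of granulosa or of theca. In large follicles it was 2 without either large theca array and 3 without granulosa large replicate 1 or either medium theca array. After quantile normalization the median of all tested probe sets in large follicles moved from 0.12 to 0.02, and 4 members were called.

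**Figure D2:**
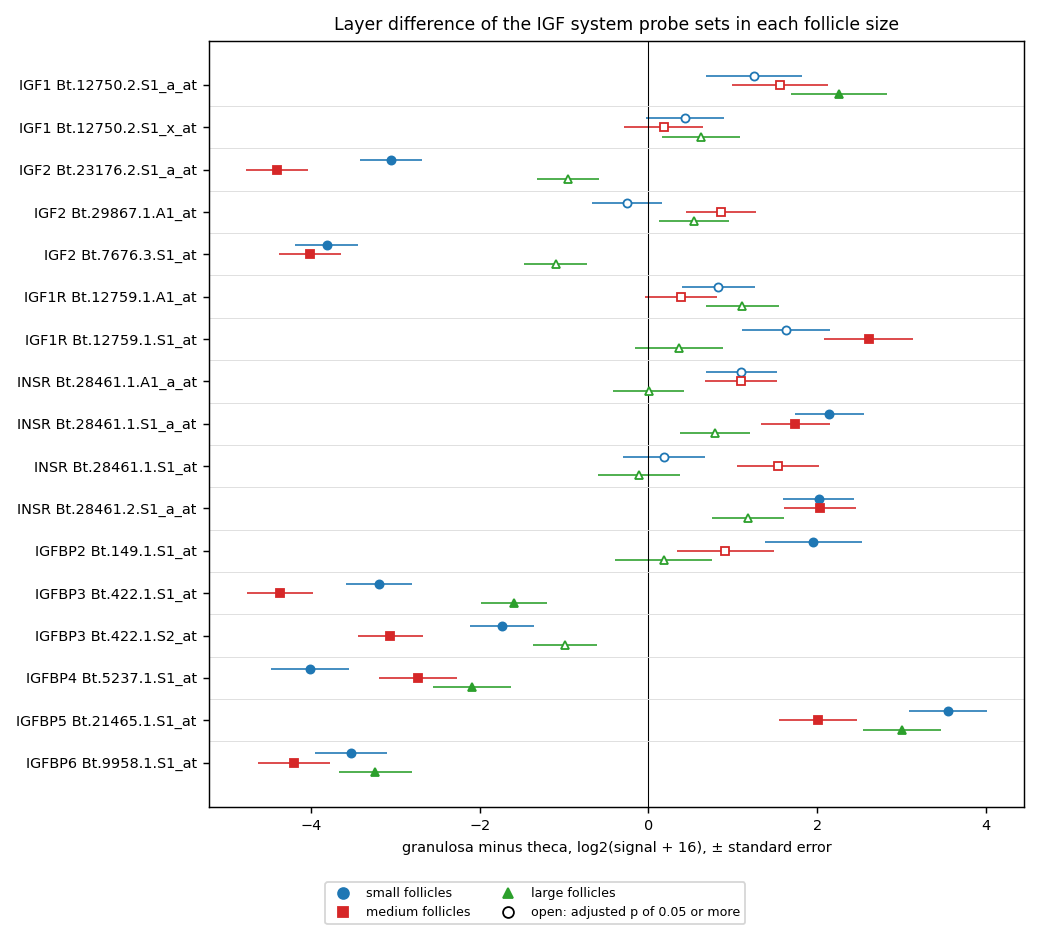
Granulosa minus theca difference, log2(signal + 16), of the 17 tested probe sets in small, medium and large follicles, with bars for the standard error of the model and n = 2 arrays per group. Filled symbols passed an adjusted p of 0.05. Both bright IGF2 probe sets and both of IGFBP3 sit nearer 0 in large than in small or medium follicles, and IGFBP3 Bt.422.1.S1_at, IGFBP4, IGFBP5 and IGFBP6 were called in all 3 sizes.

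Size was compared within each layer to follow the genes through antral growth. In granulosa, large minus small, 3 of the 17 probe sets were called, against 2.22% of all tested. They stand for 1 gene called higher and 1 lower, as the INSR probe sets correlated at 0.968 within granulosa. IGF2 Bt.23176.2.S1_a_at rose by 1.70 ± 0.36 (3.25-fold, adjusted p = 0.0264; background for rises 1.82%). INSR fell on both bright probe sets, by 1.89 ± 0.41 on Bt.28461.1.S1_a_at (3.70-fold, adjusted p = 0.0290) and by 1.81 ± 0.43 on Bt.28461.2.S1_a_at (3.50-fold, adjusted p = 0.0413; background for falls 0.4%). The arrays of large and small granulosa did not overlap for 11 of the 17, against 41.2%. IGF2 Bt.7676.3.S1_at, which correlated at 0.990 with the other IGF2 probe set within granulosa, gave 1.43 ± 0.37 (2.69-fold, adjusted p = 0.0668). Other values short of the threshold were IGFBP2 at -1.70 (adjusted p = 0.164), IGF1R Bt.12759.1.S1_at at -1.49 (adjusted p = 0.182) and IGFBP4 at 1.17 (adjusted p = 0.252). IGFBP6 (0.30), IGFBP5 (0.31) and IGF1 (0.64) had adjusted p-values of 0.663 or more.

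These granulosa calls leaned on single arrays. The IGF2 call ended without any of the 4 arrays compared, namely small replicate 1 (adjusted p = 0.202) or 2 (0.123) and large replicate 1 (0.101) or 2 (0.106). The INSR call on Bt.28461.1.S1_a_at ended without small replicate 1 (-1.32, adjusted p = 0.276), large replicate 1 (-2.32, 0.0945) or large replicate 2 (-1.45, 0.123). That on Bt.28461.2.S1_a_at ended without any of the same 4 arrays (0.0783 to 0.288), or any medium or large theca array (0.0568 to 0.0586). With an offset of 1 the 3 adjusted p-values were 0.0640, 0.0842 and 0.118, and with 64 they were 0.0581, 0.0550 and 0.0567. The INSR calls also ended when only the granulosa arrays of all sizes were fitted (0.0556 and 0.0697). That on Bt.28461.2.S1_a_at ended with no filter too (0.0671). Without both arrays that stood apart, IGF2 gave 2.02 (adjusted p = 0.0363), INSR Bt.28461.1.S1_a_at -2.32 (0.0627) and Bt.28461.2.S1_a_at -2.42 (0.0459). IGFBP2 passed without either medium granulosa array (-1.70, adjusted p = 0.0388), and IGF1R Bt.12759.1.S1_at without granulosa large replicate 2 (-2.33, adjusted p = 0.0282). IGF2 Bt.7676.3.S1_at passed without either small theca array (adjusted p = 0.0376).

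Between medium and large granulosa 1 of the 17 was called, against 0.679% of all tested. IGF2 Bt.23176.2.S1_a_at rose by 1.99 ± 0.36 (3.98-fold, adjusted p = 0.0301; background for rises 0.65%). Bt.7676.3.S1_at gave 1.74 ± 0.37 (3.33-fold, adjusted p = 0.0513), IGFBP3 Bt.422.1.S1_at 1.80 ± 0.39 (3.48-fold, adjusted p = 0.0539), IGF1R Bt.12759.1.S1_at -2.01 ± 0.52 (adjusted p = 0.0962) and IGFBP5 1.41 ± 0.46 (adjusted p = 0.218). Arrays did not overlap for 12 of the 17, against 38.4%. The IGF2 call ended without any of the 6 granulosa arrays or either medium theca array (adjusted p = 0.0510 to 0.287): small replicate 1 or 2 (0.0548), medium replicate 1 (0.0780) or 2 (0.287) and large replicate 1 (0.169) or 2 (0.0581). It also ended with an offset of 1 (0.0804) or 64 (0.0767) or no filter (0.0516), and without both arrays that stood apart (2.32, adjusted p = 0.0881). With the replicate block 3 were called, both bright IGF2 probe sets and IGFBP3 Bt.422.1.S1_at (0.0124, 0.0446 and 0.0151). Without granulosa large replicate 2, IGFBP3 passed on both probe sets (2.29, adjusted p = 0.0148, and 1.83, adjusted p = 0.0340), as did IGF1R Bt.12759.1.S1_at (-2.85, adjusted p = 0.0133). Without either small theca array IGF2 Bt.7676.3.S1_at (0.0322) and IGFBP3 Bt.422.1.S1_at (0.0495) passed.

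From small to medium granulosa limma called 0 of the 17, against 0.0058% of all tested, with 4 at an unadjusted p under 0.05 and a smallest adjusted p of 0.649. That smallest value belonged to IGFBP4, at 1.74 ± 0.47 (3.33-fold). Arrays did not overlap for 7 of the 17, against 26.6%.

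**Figure D3:**
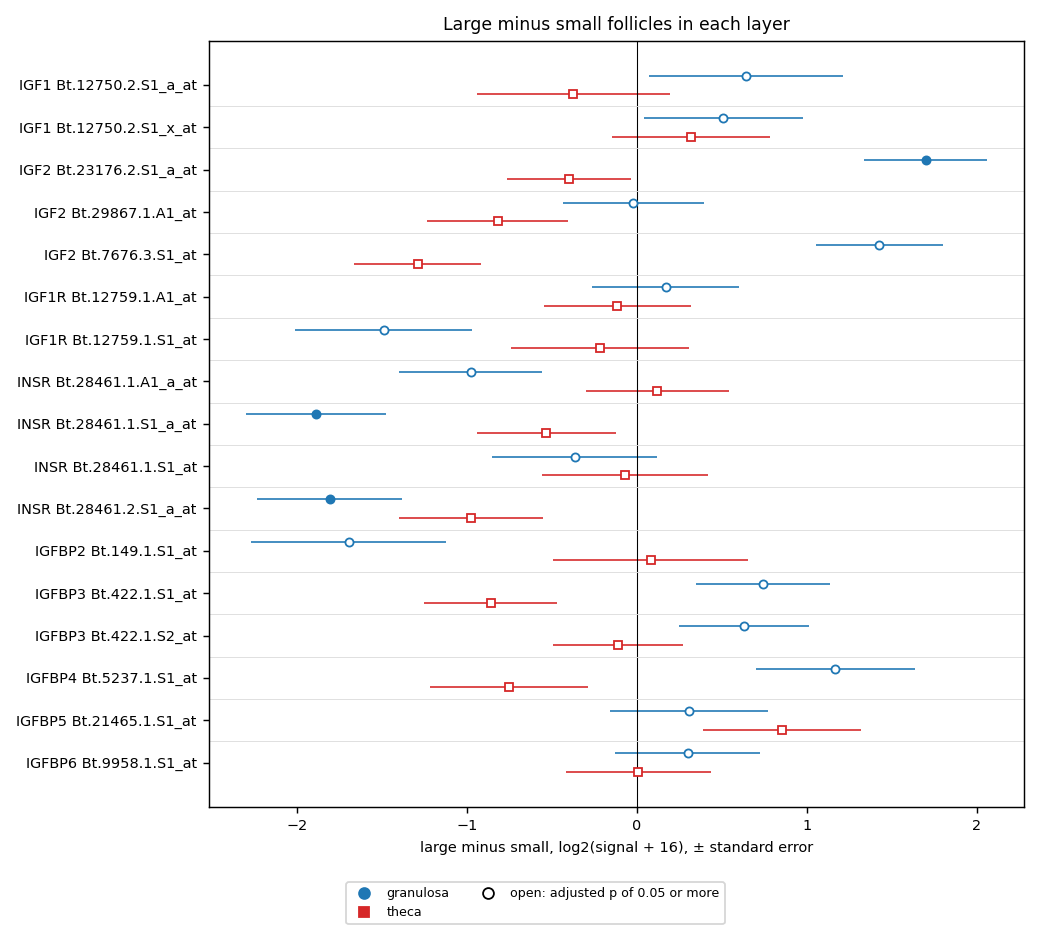
Large minus small difference, log2(signal + 16), of the 17 tested probe sets in granulosa and theca, with bars for the standard error of the model and n = 2 arrays per group. Filled symbols passed an adjusted p of 0.05. The 3 filled points are granulosa values, IGF2 Bt.23176.2.S1_a_at at 1.70 and INSR at -1.89 and -1.81, and no theca value was called.

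In theca no size difference of a member was called by limma. Large minus small gave 0 of 17 (background 0.0348%, 3 at an unadjusted p under 0.05, smallest adjusted p = 0.294). Medium minus small gave 0 (background 0.0116%, 2 unadjusted, smallest adjusted p = 0.799). Large minus medium gave 0 (background 0%, 4 unadjusted, smallest adjusted p = 0.679). Arrays did not overlap for 7, 8 and 7 of the 17, against 41%, 36.7% and 39.7% of all tested. IGF2 had the widest theca values. Bt.7676.3.S1_at gave -1.29 ± 0.37 from small to large follicles (2.45-fold), and Bt.23176.2.S1_a_at gave 1.06 ± 0.36 from small to medium and -1.45 ± 0.36 from medium to large. Without theca small replicate 2 the first of these passed (-1.73, adjusted p = 0.0359). From medium to large theca IGFBP3 Bt.422.1.S1_at gave -0.97 and IGFBP4 -1.21, both at an adjusted p of 1.

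The difference between the layers in a size change was tested directly. For large minus medium 1 of the 17 was called, against 0.0232% of all tested: IGF2 Bt.23176.2.S1_a_at, with 3.45 ± 0.51 (adjusted p = 0.0446), made of 1.99 in granulosa and -1.45 in theca. Bt.7676.3.S1_at gave 2.91 ± 0.53 and IGFBP3 Bt.422.1.S1_at 2.77 ± 0.56 (adjusted p = 0.167 each). The IGF2 call ended without any of 9 arrays, which left adjusted p-values of 0.101 to 0.365. Of the 12 arrays it could spare granulosa large replicate 2 or either small theca array. It ended with an offset of 1 or 64, no filter, quantile normalization or the compared groups alone too (0.0580 to 0.117). Without granulosa large replicate 2, IGFBP3 Bt.422.1.S1_at gave 3.26 (adjusted p = 0.0408). For large minus small limma called 0 of 17 (background 0.0116%, 6 at an unadjusted p under 0.05), and the smallest adjusted p, 0.127, was that of IGF2 Bt.7676.3.S1_at at 2.72 ± 0.53. Without theca small replicate 2 that value was 3.15 (adjusted p = 0.0225). For medium minus small it called 0 (background 0%, 3 unadjusted, smallest adjusted p = 0.999).

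Cell type markers moved with size too. Summed endothelial markers read 346 to 417 in small, 194 to 283 in medium and 558 to 817 in large granulosa, and 1696 to 2452, 2006 to 2336 and 673 to 1168 in theca. That order of sizes within granulosa, medium lowest and large highest, was also that of the group means of IGF2 and IGFBP3 (both bright probe sets of each), IGF1 Bt.12750.2.S1_a_at, IGFBP5 and IGFBP6. It was not particular to endothelial markers. The mean sums of smooth muscle and pericyte, stroma and red blood cell markers had it too, with overlap of small and medium granulosa. Smooth muscle and pericyte markers read 2684 to 3167 in small, 2061 to 3214 in medium and 2401 to 6670 in large granulosa. Red blood cell markers read 42.9 to 56.8, 24.3 to 57.7 and 85.6 to 668. None of the 12 endothelial markers tested was called in granulosa, large minus small (median 0.59), or between layers in large follicles (median -0.30), where 8 were lower in granulosa in small and 10 in medium follicles. Summed macrophage and myeloid markers read 574 to 607 in small, 746 to 1590 in medium and 6528 to 16689 in large granulosa, and 1114 to 3772 in theca. Fibroblast and stroma markers read 4896 to 6575, 1991 to 9013 and 4487 to 7665 in the 3 granulosa sizes, and theca markers 4749 to 5348, 3817 to 6561 and 3947 to 5309. Of these lists, 0 of 13 stroma markers were called in granulosa, large minus small, and 1 of 9 theca markers was lower. The 15 granulosa markers had a median of -0.59 there, with 1 called higher and 1 lower, beside the fall of INSR; their sum read 30929 to 37212 in small and 29245 to 47041 in large granulosa. Between small and large theca 2 of the 15 granulosa markers were called higher (median 0.08), against 0.0348% of all tested probe sets. The part of the endothelial, smooth muscle, stroma, red blood cell, myeloid, lymphocyte and granulosa markers in the IGF2, IGFBP3 and INSR results was not tested.

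**Figure D4:**
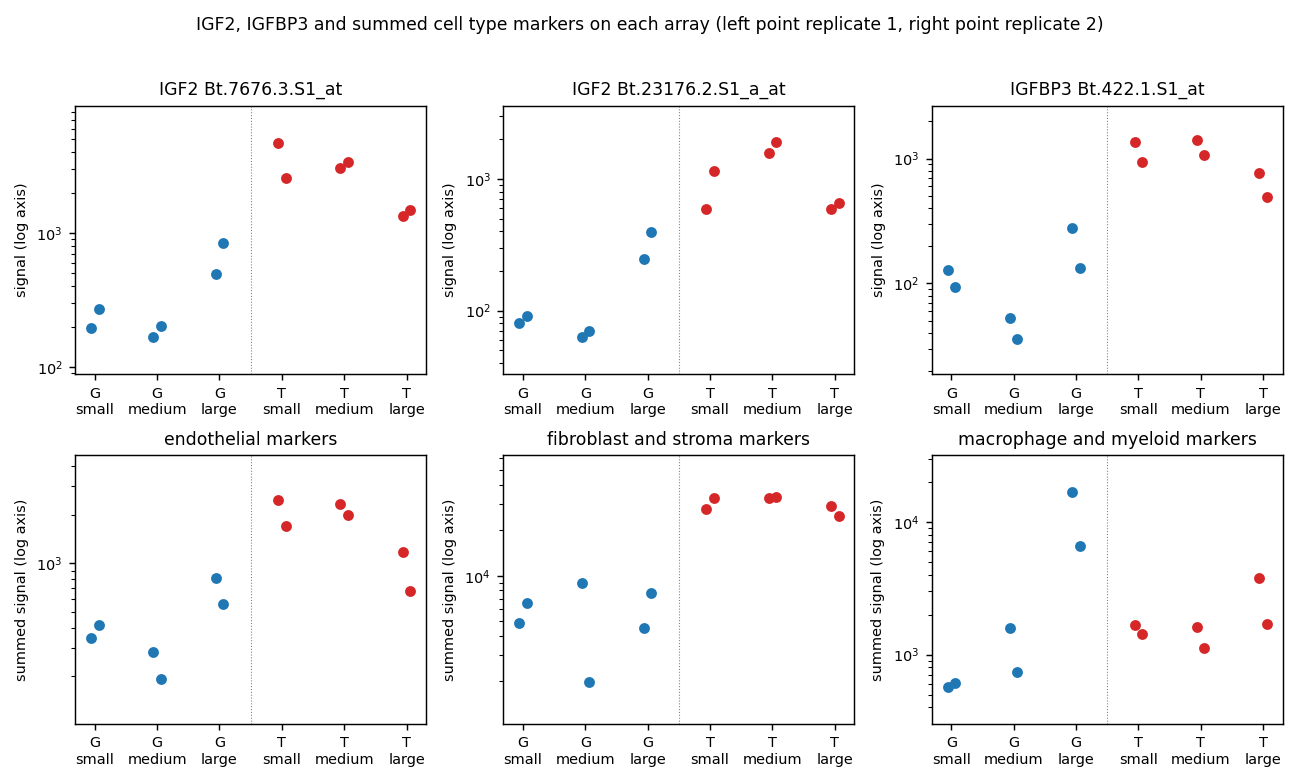
Signals of IGF2 (2 probe sets) and IGFBP3, and summed signals of endothelial, stroma, and macrophage and myeloid markers, on each of the 12 arrays (log axes, G granulosa in blue, T theca in red, replicate 1 left and replicate 2 right). In granulosa the endothelial sum is lowest in medium and highest in large follicles, as are the means of the IGF2 and IGFBP3 probe sets shown, and the myeloid sum is highest in large granulosa, at 6528 and 16689. The mean stroma sum has the same order of granulosa sizes, with overlapping arrays.

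Beyond the 9 genes, a list of 40 other IGF pathway genes held 22 with a probe set, of which 18 were tested. Over all sizes 2 of the 18 were higher and 4 lower in granulosa, against 13.6% and 11.2% of all tested probe sets. Their median was 0.33, against 0.10 for all tested probe sets. TSC1, which restrains mTOR signalling, was higher by 1.16 ± 0.27 (adjusted p = 0.00696), and PIK3R1, the regulatory subunit of PI3-kinase, by 1.07 ± 0.32 (adjusted p = 0.0241). SOCS2, a feedback inhibitor of growth hormone signalling, was lower by -1.52 ± 0.25 (2.87-fold, adjusted p = 0.000642). IGFALS, the third protein of the circulating IGF complex (-0.92, adjusted p = 0.0149), the adaptor SHC1 (-0.81, adjusted p = 0.0109) and the adaptor GRB10 (-0.61, adjusted p = 0.0380) were lower too. SOCS2 read 2.0 to 23.4 on the 6 granulosa arrays and 29.8 to 117.6 on the 6 theca arrays, with no overlap. Granulosa read 2.0 to 18.1 for IGFALS and 4.1 to 22.5 for GRB10. The probe sets of SOCS2, IGFALS and GRB10 passed the filter only through theca groups, the side where they read high. They could hardly be called in the other direction, so their calls are no support for the count of lower genes. Of these 6 calls, those of SOCS2, TSC1 and SHC1 held under all 20 other settings. IGFALS lost its call without theca large replicate 1 (adjusted p = 0.0522) or with an offset of 64 (0.0542). PIK3R1 lost it without any of 6 arrays (granulosa small replicate 1, granulosa large replicate 1, theca small replicate 1, theca large replicate 1 or either medium theca array, 0.0506 to 0.0787), and with an offset of 1 (0.05995) or 64 (0.0580) or without both arrays that stood apart (0.0954). GRB10 lost it without any of 9 arrays, kept only without granulosa small replicate 1, granulosa large replicate 2 or theca small replicate 2 (0.0556 to 0.102 otherwise), and also with an offset of 64 (0.114) or without both arrays that stood apart (0.106).

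STC1, stanniocalcin, an inhibitor of the protease PAPPA, read 1672 and 899 in small, 959 and 683 in medium and 382 and 308 in large granulosa. Theca read 159 and 273 in small, 687 and 821 in medium and 378 and 752 in large follicles. In small follicles granulosa was above theca by 2.47 ± 0.42 (5.52-fold, adjusted p = 0.00271), a call kept under all 21 other settings. PIK3R1 was higher there too (2.32, adjusted p = 0.0188; 0.141 and 0.154 with replicate 1 of small granulosa or of small theca left out, 0.145 without both arrays that stood apart and 0.0640 with an offset of 64) and SOCS2 lower (-1.88, adjusted p = 0.0159; 0.121 with replicate 1 of small granulosa and 0.0547 with replicate 2 of small theca left out, and 0.0504 with an offset of 1). In medium follicles SOCS2 was the one gene called (-1.90, adjusted p = 0.0167), which leaving out medium granulosa replicate 1 (0.125) or medium theca replicate 1 (0.0717) or 2 (0.174) ended, as did an offset of 1 (0.127), and in large follicles limma called 0 of the 18. Within granulosa STC1 fell by 1.79 ± 0.42 from small to large follicles (3.46-fold, adjusted p = 0.0392). That call ended without any of the 4 arrays compared, small replicate 1 (0.312) or 2 (0.0744) and large replicate 1 (0.168) or 2 (0.116), or either medium theca array (0.0639), and with an offset of 1 (0.109) or 64 (0.0603), no filter (0.0647), quantile normalization (0.0546) or both arrays that stood apart left out (0.108). No other size change of the 18 genes was called in either layer. In small follicles 2 of the 18 were higher and 1 lower, against 4.06% and 5.08% of all tested probe sets. The medium-follicle call, a lower one, stood against 4.21%, and 4.41% were called in either direction in large follicles. For falls from small to large granulosa the share was 0.4%. The SOCS2 calls by size were again of a probe set that passed the filter through theca alone. PAPPA, IGFBP1, IGF2BP1 and IGF2BP3 had probe sets under the filter.

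Genes with the most similar pattern were sought by the correlation of log2(signal + 16) over the 12 arrays with the brightest probe set of each member. Since the layers form separate clusters, these coefficients mostly follow the layer, and those within the 6 arrays of a layer are given too, all as descriptions. For IGF2 they were SMCO4 (r = 0.978, 0.941 within granulosa and 0.892 within theca) and GPRC5C (0.970, 0.852 and 0.827). IGFBP3 went with SELENBP1, selenium-binding protein 1 (0.988, 0.971 and 0.936), and with CAMK2D, a calmodulin-dependent kinase subunit (0.984, 0.947 and 0.811). INSR went with the integrin subunit ITGA2 (0.976, 0.963 and 0.898) and the Mediator subunit MED25 (0.963, 0.985 and 0.602). IGFBP5 went with CRABP2, which binds retinoic acid (0.972, 0.946 and 0.882), and the receptor kinase MERTK (0.958, 0.743 and 0.855).

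IGFBP6 went with CHST7, a sulfotransferase (0.986, 0.498 and 0.960), and ARHGEF25 (0.982, 0.575 and 0.764). IGFBP4 went with TMEM45A (0.954, 0.776 and 0.728) and the growth factor TGFB3 (0.949, 0.728 and 0.741). For IGF1R these were ZFAND3 (0.957, 0.985 and 0.0999) and the ubiquitin ligase MARCHF6 (0.931, 0.991 and 0.0272), so the likeness lay in granulosa and was close to 0 in theca. IGFBP2 went with the sialyltransferase ST3GAL1 (0.939, 0.909 and 0.921) and with STX6 (0.909, 0.920 and 0.457). IGF1 went with TNFSF13, a TNF family cytokine (0.911, 0.941 and 0.954), and PHF1 (0.910, 0.800 and 0.623).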

How the data were processed

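The deposited file gave a linear signal intensity for each probe set on 12 arrays in 6 groups. Per the file's values, the authors had scaled them to a 2% trimmed mean of 125.03 to 125.04 on every array. The sources used here do not name the software or its settings. All 12 columns matched a sample by its own identifier. Of 24128 probe sets, 112 were controls. Symbols came from the platform annotation (13292 probe sets with 1 symbol, 86 with several, 10638 with none), and 9 of 9 member symbols stayed unchanged by Entrez ID in assembly ARS-UCD2.0. Replicates correlated with Spearman coefficients of 0.867 to 0.948 and shared 0.327% to 0.638% identical values.

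Signals became log2(signal + 16). Probe sets with a group mean above the 40th percentile (22.5) were tested, 17236 in all, with limma 3.58.1 in R 4.3.3: a mean per group over all arrays, 13 contrasts, 6 residual and 7.92 prior degrees of freedom, and Benjamini-Hochberg adjustment within a contrast. With 2 arrays a group, the smallest p of an exact permutation test is 0.333. The number of arrays limits the precision. The procedure was tested on simulated data. Alternatives were offsets of 1 and 64, no filter, quantile normalization, an intensity trend, a replicate block, the compared groups alone, each array left out, and both arrays that stood apart left out. For a size change within a layer, the setting of the compared groups alone kept all sizes of that layer. Where a group kept 1 array, that array was assumed to vary like the other groups. Named were all members, called genes of the pathway list (up to 4 per direction, brightest probe set) and the 2 nearest patterns per member. The members and lists were chosen with earlier results of these data known. No nucleotide or protein sequences were used here. Python 3.11.15 with matplotlib 3.10.9 drew the figures.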

Additional observations from a re-analysis of the deposited data

Results flagged for a closer look

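IGF2 Bt.23176.2.S1_a_at differed between the layers in its change from medium to large follicles, by 3.45 ± 0.51 on the log2 scale (limma, adjusted p = 0.0446), with both large granulosa arrays (247 and 396) above both medium ones (62.9 and 70.7) and both large theca arrays (594 and 652) below both medium ones (1578 and 1903). It was flagged because the test of the difference itself called it. That call was lost under 15 of 21 other settings. Its theca part, -1.45 from medium to large follicles, was not called by itself (limma, adjusted p = 0.679). The second bright IGF2 probe set, Bt.7676.3.S1_at, gave 2.91 (adjusted p = 0.167) with the same directions on all arrays of those groups.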

How the results depend on the processing

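Of 44 called member changes 25 were kept under every alternative and 19 were lost under some, and no called change turned sign under any alternative. Of the 4624 alternative values of all 221 member changes, 145 turned sign, each of a change that was not called. Offset 1 gave counts of called probe sets of 2 between layers in large follicles, 0 in granulosa large minus small, 0 in granulosa large minus medium and 0 for the layer difference in that change. Offset 64 gave 0, 0 and 0 for the last 3 of these. Without the filter the counts were 3 in large follicles, 0 for granulosa large minus medium and 0 for its layer difference. Fitting only the groups compared gave 3 in large follicles and 0 for the layer difference. Fitting only the granulosa arrays, of all sizes, gave 1 for granulosa large minus small. Quantile normalization gave 2 for granulosa large minus medium and 0 for its layer difference, an intensity trend 2 and the removal of both arrays that stood apart 0 for the former. Leaving out 1 array at a time gave 11 to 14 over all sizes, 6 to 10 in small, 6 to 10 in medium and 2 to 5 in large follicles. It gave 0 to 4 for granulosa large minus small, 0 to 3 for large minus medium, 0 to 1 for theca large minus small, 0 to 1 for the layer difference in large minus small and 0 to 2 for that in large minus medium. Replicate numbers are shared by all groups, and 6 of 15 pairs of groups correlated above 0.1 in their replicate deviations. Within a layer every pair of groups was positive (0.0727 to 0.402). Across layers only large granulosa with large theca was positive (0.142), and the others ran from -0.335 to -0.0682. The numbers were not taken as pairs in the main model. With the replicate block 3 probe sets were called for granulosa large minus medium, IGF2 on both bright probe sets and IGFBP3 Bt.422.1.S1_at. With the numbers crossed in theca, a choice made after seeing the data, the block gave 3 there and 0 for its layer difference. The cause of these moves was not tested. With 2 pools per group, differences well under the spread of replicates are not measurable, and dim probe sets near the filter signal give folds that depend on the offset.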

Other observations

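On theca small replicate 1, the array with the GAPDH ratio of 8.36, the members did not shift in 1 direction. It was above its replicate for IGF2 Bt.7676.3.S1_at (4707 against 2567), IGFBP4 (1965 against 856), IGFBP6 (3726 against 1541) and IGFBP3 Bt.422.1.S1_at (1350.0 against 945). It was below it for IGF2 Bt.23176.2.S1_a_at (590.3 against 1150.0) and IGFBP3 Bt.422.1.S2_at (479 against 614). IGF2 and IGFBP3 thus each had a probe set on either side.

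IGFBP2 and IGFBP5, adjacent protein-coding genes in assembly ARS-UCD2.0, were both higher in granulosa over all sizes. The IGFBP2 call was lost under 13 of 20 other settings, while that of IGFBP5 held under all 20. Within granulosa their large minus small values were -1.70 for IGFBP2 and 0.31 for IGFBP5, neither of them called (limma, adjusted p = 0.164 and 0.818).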
